A study of Mus musculus with 33 samples.

Results

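The genes described here are 9 parts of the switch that turns on the mitotic kinase CDK1: the inhibitory kinases Pkmyt1 and Wee1, the kinase Cdk1, the cyclins Ccnb1 and Ccnb2, the phosphatases Cdc25a, Cdc25b and Cdc25c, and the kinase Plk1. They were taken by symbol from a table of 54532 gene rows, and each symbol matched 1 row. The table holds read counts from bulk RNA-seq of 33 mouse mammary tumours, of which 32 have a group. The study asked, by its title, about PKMYT1 inhibition and low molecular weight cyclin E in triple-negative breast cancer, and its design text names cyclin E transgenic and PyMT tumours.

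All samples carry the genotype label FVB, an inbred mouse strain, and the labels give no transgene, promoter, age or tumour line. Per the protocols, tumours had been transplanted before treatment. VEH_7 (n = 3) and VEH (n = 4) received vehicle. M20_7 (n = 4) and MYT (n = 11) received RP-6306, an inhibitor of the PKMYT1 kinase, at 20 mg/kg, once a day by the treatment protocol but with a twice-daily abbreviation in the sample field. SPON (n = 5) and WT (n = 5) are labelled as untreated. The labels do not say how long each mouse was treated, what the suffix _7 means, which tumour line each set carries, or which of SPON and WT is the cyclin E or the PyMT tumour. Nor do they say whether each tumour grew in its own mouse, so the spread behind every p-value may be partly technical. 1 library titled as vehicle carries RP-6306 in its treatment field and entered no comparison.

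CDK1 bound to cyclin B drives entry into mitosis. WEE1 in the nucleus and PKMYT1 at the endoplasmic reticulum and Golgi hold the complex inactive by phosphorylating CDK1, and CDC25 phosphatases remove these phosphates. Active CDK1 and PLK1 in turn stimulate CDC25 and promote the loss of WEE1, so the switch flips abruptly. Transcripts of most of these genes rise in late S phase and G2 in dividing cells, so their level in a tumour also follows how many cells are dividing. RNA says nothing of the phosphorylation that RP-6306 acts on.

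Libraries titled _7 held 26517748 to 34637096 counts and the others 13701115 to 20105407. The groups differed in tumour make-up. Epcam, which defines epithelium, stood at 5.01 ± 4.43 CPM (read counts scaled to library size, mean ± SD, n = 3) in VEH_7, 3.99 ± 1.67 (n = 4) in M20_7 and 70.9 ± 112 (n = 4) in VEH, against 1426 ± 349 (n = 11) in MYT, 1399 ± 225 (n = 5) in SPON and 918 ± 179 (n = 5) in WT. The labelled mammary tumour was thus nearly without this marker in both _7 groups. In VEH, Epcam ran from 8.9 through a median of 18.1 to 239 CPM, so the VEH mean rests largely on the highest library. Summed CPM of 11 fibroblast and mesenchymal markers ran from 14450 to 23130 in VEH_7, M20_7 and VEH libraries and from 773 to 5476 in MYT, SPON and WT libraries. In bulk tissue, fewer cells of a type and less RNA per cell cannot be told apart.

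**Figure D1:**
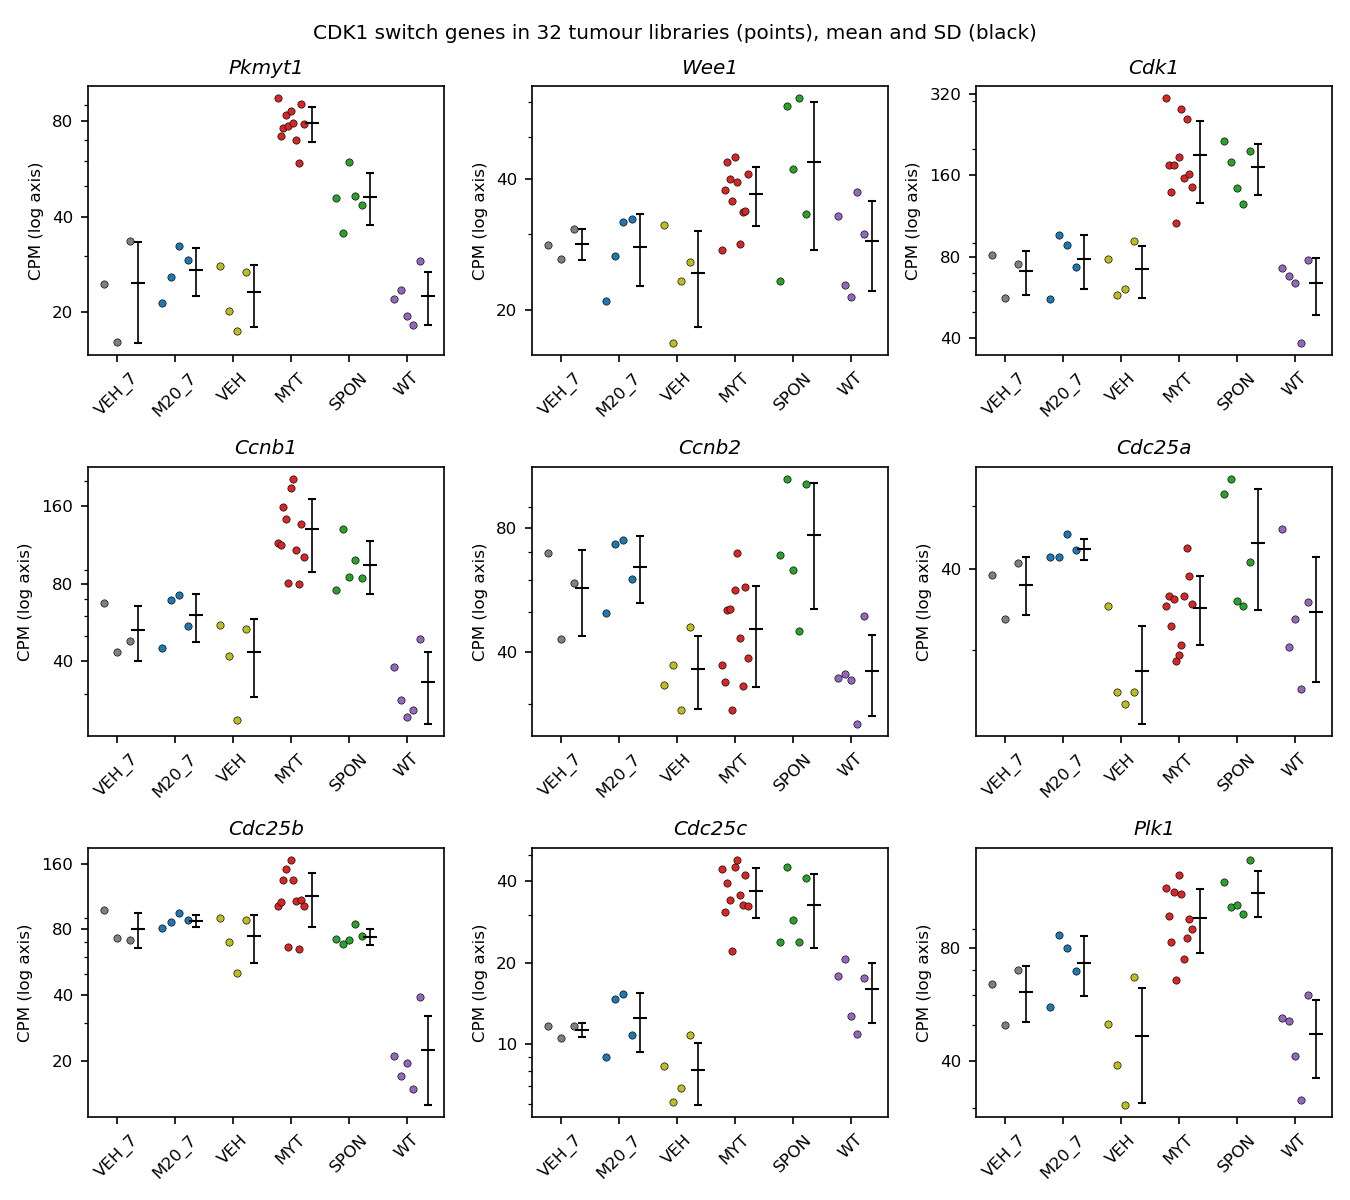
CPM on a log axis for each of the 9 genes in 32 libraries (points, coloured by group), with the group mean and SD in black. Pkmyt1 lay between 59.3 and 94.7 in all MYT libraries and at or below 59.4 in all others, and Cdc25b was lowest in WT, where no library passed 39.3.

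Pkmyt1, the target of the drug, was the inhibitory kinase that differed most between groups. Its CPM was 24.4, 16.1 and 33.4 in VEH_7, and 21.3, 25.7, 32.3 and 29.2 in M20_7. In VEH it was 28.0, 20.2, 17.4 and 26.7, and in MYT it ran from 59.3 through a median of 78.6 to 94.7. No MYT library overlapped VEH, whereas the M20_7 range lay inside that of VEH_7. Pkmyt1 rose in MYT against VEH by 1.78 ± 0.14 (SE) on the log2 scale, or 3.43-fold (edgeR quasi-likelihood test, adjusted p = 3.44e-08), and the fold change stayed between 1.67 and 1.90 without any 1 library. In SPON, Pkmyt1 was at 45.8, 35.4, 59.4, 46.5 and 43.7 CPM, and in WT at 22.02, 23.5, 19.4, 18.2 and 29.0. These groups did not overlap either, and Pkmyt1 was higher in SPON by 1.05 ± 0.22 (adjusted p = 0.0167). The call was lost without WT replicate 1, 3 or 4, where the adjusted p lay between 0.0504 and 0.0565 and the fold change between 0.95 and 1.02.

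Wee1, the nuclear inhibitory kinase, moved less. It was at 28.3, 26.2 and 30.8 CPM in VEH_7, at 21.0, 26.7, 31.9 and 32.4 in M20_7, and at 31.4, 16.8, 23.3 and 25.8 in VEH. In MYT it ran from 27.5 through 37.9 to 44.9, so that the lowest MYT libraries lay inside the VEH range. The difference of MYT from VEH was 0.60 ± 0.16 on the log2 scale (edgeR, adjusted p = 0.00327). With only the 5 MYT tumours whose title numbers lie in the 400s it was 0.38 and did not pass (adjusted p = 0.103). Wee1 averaged 32.3 ± 4.27 CPM in those 5 and 40.7 ± 3.71 in the 5 with 4-digit title numbers, whereas Pkmyt1 averaged 77.3 ± 15.0 and 80.4 ± 4.23. SPON held the highest Wee1 mean but also the widest spread, at 23.3, 58.9, 42.3, 61.3 and 33.2 CPM, against 32.8, 22.8, 21.4, 37.4 and 29.98 in WT. That difference was 0.61 ± 0.29 and did not pass (adjusted p = 0.197), although it did in 1 fit over all 6 groups (0.61, adjusted p = 0.0286).

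The pair was also compared within each library, which removes library scaling. The 3 ratios tested here and below were chosen with earlier results of these data known. The mean log2 ratio of Pkmyt1 to Wee1 was -0.07 ± 0.29 (SD, n = 4) in VEH and 1.10 ± 0.30 (n = 11) in MYT, a change from about equal read counts to 2.14 Pkmyt1 reads for each Wee1 read. The 11 MYT libraries, from 0.80 to 1.78, all lay above the 4 VEH libraries, from -0.42 to 0.26. The difference of 1.17 had p = 0.00147 in a two-sided exact permutation test, the smallest that 1365 arrangements allow, and 0.00659 after Benjamini-Hochberg adjustment over the 9 ratio tests (3 ratios in 3 comparisons). In SPON the ratio was 0.14 ± 0.69 (n = 5) and in WT -0.35 ± 0.45 (n = 5), with overlapping ranges (exact permutation p = 0.230, adjusted 0.345). M20_7, at -0.04 ± 0.08 (n = 4), and VEH_7, at -0.27 ± 0.41 (n = 3), also overlapped (exact permutation p = 0.457, adjusted 0.588, and a test of this size cannot go below 0.0571).

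**Figure D2:**
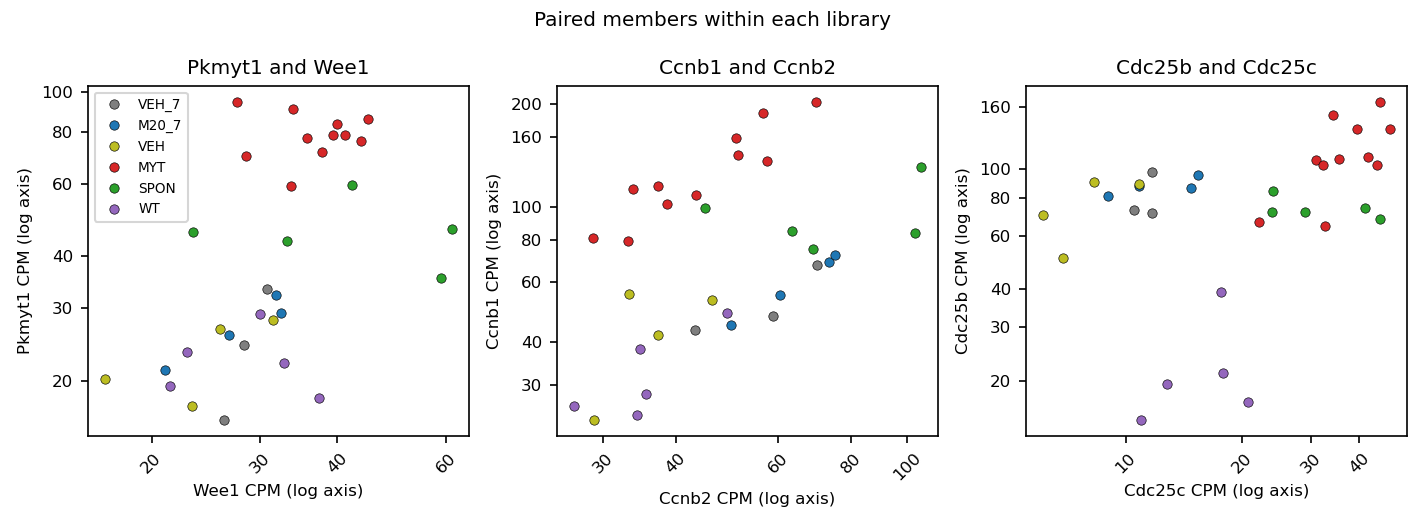
CPM of 1 gene against another in each library, both axes log, points coloured by group, for Pkmyt1 and Wee1, Ccnb1 and Ccnb2, and Cdc25b and Cdc25c. In the log2 ratio of Pkmyt1 to Wee1, all MYT libraries (0.80 to 1.78) stand above VEH, VEH_7, M20_7 and WT, whereas 1 SPON library, at 0.97, lies inside the MYT range.

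Cdk1, the kinase itself, stood at 81.3, 56.4 and 75.1 CPM in VEH_7 and at 56.1, 96.1, 88.5 and 73.5 in M20_7. In VEH it was at 78.3, 58.1, 60.7 and 91.3, and in MYT it ran from 107 through 174 to 308. The rise in MYT was 1.41 ± 0.26 on the log2 scale (edgeR, adjusted p = 0.000162), with no overlap. SPON libraries lay at 214, 178, 143, 126 and 197 CPM and WT libraries at 72.7, 67.9, 64.1, 38.5 and 78.1, again without overlap, and the difference was 1.42 ± 0.24 (edgeR, adjusted p = 0.00801). The ratio of Pkmyt1 to Cdk1 did not pass a test in either comparison. Its log2 difference was 0.44 for MYT against VEH (exact permutation p = 0.111, adjusted 0.251) and -0.39 for SPON against WT (exact permutation p = 0.151, adjusted 0.271).

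The B cyclins parted in the treated set. Ccnb1, the main mitotic partner of CDK1, was at 55.4, 42.1, 23.7 and 53.4 CPM in VEH and ran from 79.5 through 115 to 203 in MYT. It rose by 1.57 ± 0.27 on the log2 scale without overlap (edgeR, adjusted p = 8.96e-05). Ccnb2, the Golgi-associated cyclin B, was at 33.2, 37.3, 28.9 and 46.2 CPM in VEH and from 28.9 through 43.4 to 69.6 in MYT. Its difference of 0.33 ± 0.21 did not pass (edgeR, adjusted p = 0.178), and VEH lay inside the MYT range. The log2 ratio of Ccnb1 to Ccnb2, looked at after these values had been seen and so not tested, was 0.21 (-0.28 to 0.74) in VEH and 1.495 (1.25 to 1.73) in MYT.

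In the untreated tumours both cyclins were higher in SPON. Ccnb1 was at 75.3, 131, 84.7, 98.8 and 83.9 CPM in SPON against 38.1, 28.3, 24.4, 26.0 and 48.8 in WT, a difference of 1.52 ± 0.25 (edgeR, adjusted p = 0.00691). Ccnb2 was at 68.8, 105, 63.4, 44.9 and 103 CPM in SPON against 34.7, 35.5, 34.3, 26.8 and 48.9 in WT, a difference of 1.10 ± 0.27 (adjusted p = 0.0303). SPON replicate 4 fell inside the WT range for Ccnb2. The Ccnb2 call was lost without SPON replicate 5 or any of WT replicates 1 to 4, with adjusted p from 0.0555 to 0.0847.

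Promoters of 5 members are shown because Cdk1, Ccnb1, Plk1 and Cdc25b rose in MYT against VEH and were higher in SPON than in WT, while Ccnb2 passed in the second comparison and not in the first. Each stretch runs from 120 bases before the RefSeq start through the first 10 transcribed bases, 5′ to 3′ on the gene's strand, build GRCm38.p6. Capitals mark CCAAT or, where it reads on the other strand, its complement ATTGG. That box is bound by NF-Y. Capitals also mark TTTGAA, the core of the cell cycle homology region bound by DREAM and MYB-MuvB complexes.
Cdk1, chr10:69352903-69353032, minus strand: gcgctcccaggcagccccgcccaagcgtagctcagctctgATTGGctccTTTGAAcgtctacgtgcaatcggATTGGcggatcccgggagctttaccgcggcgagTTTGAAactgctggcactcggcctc
Ccnb1, chr13:100786477-100786606, minus strand: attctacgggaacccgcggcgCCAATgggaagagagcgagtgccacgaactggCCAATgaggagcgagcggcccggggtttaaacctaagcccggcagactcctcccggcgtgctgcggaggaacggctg
Ccnb2, chr9:70421545-70421674, minus strand: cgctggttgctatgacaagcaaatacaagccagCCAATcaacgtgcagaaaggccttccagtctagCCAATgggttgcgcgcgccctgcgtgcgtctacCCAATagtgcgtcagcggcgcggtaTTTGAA
Plk1, chr7:122159315-122159444, plus strand: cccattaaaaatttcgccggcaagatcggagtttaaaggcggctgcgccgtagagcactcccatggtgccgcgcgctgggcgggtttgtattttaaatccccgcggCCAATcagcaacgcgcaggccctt
Cdc25b, chr2:131186828-131186957, plus strand: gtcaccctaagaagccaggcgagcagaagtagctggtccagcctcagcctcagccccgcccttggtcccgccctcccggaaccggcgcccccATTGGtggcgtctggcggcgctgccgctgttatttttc

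Full RefSeq windows, 250 bases before to 50 after the start, were at hand for 6 of the 9 members: Cdk1, Ccnb1, Ccnb2, Plk1, Cdc25a and Cdc25b. Pkmyt1, Wee1 and Cdc25c had no window and were not searched. CCAAT on either strand was in 6 of 6, against 37.4% of all 32851 windows. TTTGAA was in 3 (Cdk1, Ccnb2 and Plk1), against 17.9%, and the same 3 held both, against 6.95%. The E2F letters TTTGGCGC or TTTCGCGC, on either strand, were in Cdk1 and Cdc25a, against 0.813%. The motifs share no letters that overlap in these 6 windows. Cdk1 and Ccnb2 each held 3 CCAAT and 2 TTTGAA matches, and Plk1 held 1 of each. Ccnb1 held 2 CCAAT matches and Cdc25b 1, without TTTGAA. A match describes letters only, and no letters other than those named were searched, so a variant of a motif would be missed.

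**Figure D3:**
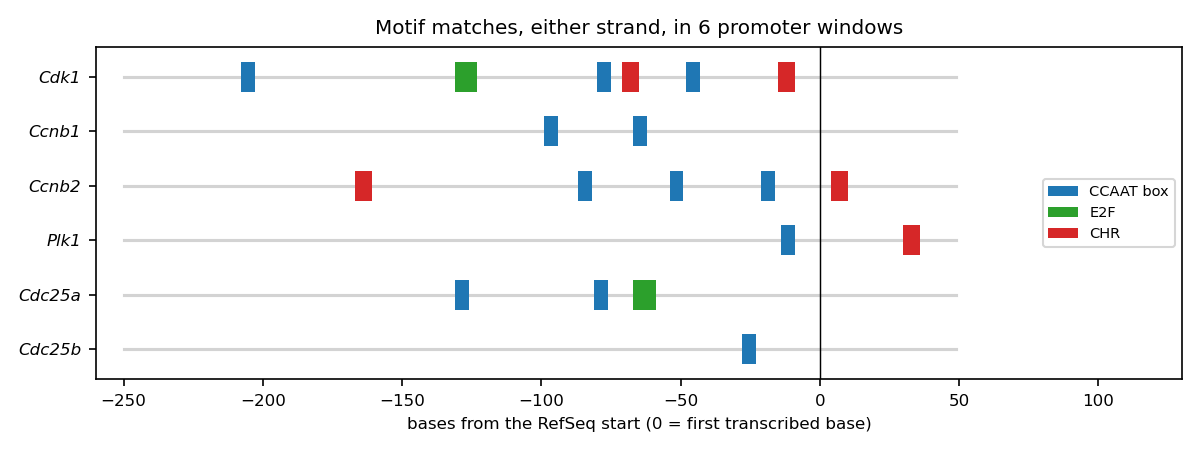
Positions of CCAAT boxes (blue), the TTTGAA core (CHR, red) and E2F letters (green) on either strand, in bases from the RefSeq start (0 is the first transcribed base), for 6 members; grey lines span the window searched. Cdk1 and Ccnb2 each hold 3 CCAAT and 2 TTTGAA matches.

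The 3 CDC25 phosphatases, which lift the inhibition, were all called higher in MYT than in VEH, by different amounts. Cdc25c, active at mitotic entry, was at 8.30, 6.14, 6.91 and 10.9 CPM in VEH and ran from 22.1 through 35.6 to 47.9 in MYT. It rose by 2.204 ± 0.21 on the log2 scale, or 4.61-fold (edgeR, adjusted p = 1.87e-07), the largest fold change of the 9 in that comparison. Cdc25b, which acts early in the activation of CDK1, was at 90.2, 70.2, 50.6 and 88.7 CPM in VEH and from 64.8 through 108 to 166 in MYT. The ranges overlapped, the difference was 0.60 ± 0.22 (edgeR, adjusted p = 0.0282), and the call was lost without VEH replicate 2 or 3 (adjusted p = 0.0715 and 0.111). With only the MYT tumours of the 400s it was 0.37 (adjusted p = 0.133). Cdc25a, which also acts at the G1/S transition, differed by 0.33 ± 0.13 (edgeR, adjusted p = 0.0358), from 24.7 to 35.02 CPM in VEH and from 28.8 to 43.0 in MYT. That call ended without VEH replicate 2, 3 or 4 or MYT replicate 10, and with DESeq2, DESeq2 size factors, no low-count filter, 1 fit over 6 groups or only the 4-digit MYT tumours (adjusted p from 0.0513 to 0.301).

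Between the untreated groups, Cdc25b and Cdc25c passed the test and Cdc25a did not. Cdc25b was at 72.0, 68.4, 71.8, 84.6 and 74.3 CPM in SPON and at 21.1, 17.0, 19.5, 14.9 and 39.3 in WT. All WT libraries lay below every other library of the 6 groups, the nearest being a VEH library at 50.6. Cdc25b was higher in SPON by 1.73 ± 0.28 on the log2 scale, or 3.33-fold (edgeR, adjusted p = 0.00597), the largest of the 9 there. Cdc25c was at 23.9, 45.2, 28.9, 24.0 and 41.3 CPM in SPON and at 17.9, 20.6, 12.8, 10.96 and 17.6 in WT. Its difference of 1.03 ± 0.27 passed (adjusted p = 0.0400), but not when any of 8 of the 10 libraries was left out, where the adjusted p reached 0.113. Those libraries were SPON replicates 2, 3 and 5 and all 5 of WT, and without the low-count filter the adjusted p was 0.0586. Cdc25a differed by 0.36 ± 0.22 and did not pass (adjusted p = 0.321).

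The ratio of Cdc25b to Cdc25c fell in MYT. Its mean log2 value was 3.20 ± 0.31 (SD, n = 4) in VEH and 1.59 ± 0.32 (n = 11) in MYT, without overlap, a difference of -1.61 (two-sided exact permutation p = 0.00147, the smallest possible, adjusted 0.00659). In SPON against WT the ratio differed by 0.80 with overlapping ranges and did not pass after adjustment (exact permutation p = 0.0476, adjusted 0.143).

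Plk1, which activates CDC25 and marks WEE1 for destruction, ran from 30.6 to 67.3 CPM in VEH and from 66.0 through 96.0 to 125 in MYT, where 1 MYT library fell below the highest VEH library. It rose by 1.05 ± 0.20 on the log2 scale (edgeR, adjusted p = 0.000202). In SPON, Plk1 ran from 98.8 to 137 CPM and in WT from 31.5 to 60.1, and the difference was 1.26 ± 0.21 (edgeR, adjusted p = 0.00801).

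Over the 9 genes, 8 rose and 0 fell in MYT against VEH, where 30.5% of all 16021 genes tested rose and 59.5% changed in either direction. Ranges did not overlap for 4 of the 9 (Pkmyt1, Cdk1, Ccnb1 and Cdc25c), against 35.1% of all genes, so that share was near the background. The median log2 fold change was 1.05 for the 9 and 0.04 for all genes. Of 14 genes of a proliferation reference, among them Mki67 (1.52 ± 0.19, adjusted p = 4.58e-06) and Top2a (0.61 ± 0.19, adjusted p = 0.0101), 13 rose, with a median of 1.10. Their summed CPM was 671 to 1134 in VEH and 1468 to 2085 in MYT. In SPON against WT, 7 of the 9 rose and 0 fell, where 4.52% of 15558 genes rose, 3.86% fell and 8.38% changed. Ranges did not overlap for 6 of the 9 (Pkmyt1, Cdk1, Ccnb1, Cdc25b, Cdc25c and Plk1), against 9.81% of all genes. The median was 1.10 for the 9 and 0.08 for all genes, and 5 of the 14 proliferation genes rose (median 0.98). The count of members called fell to 4 without WT replicate 1, 3 or 4. Neither Mki67, at 0.87 ± 0.29, nor 8 other reference genes passed in SPON against WT (Mki67 adjusted p = 0.0812).

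**Figure D4:**
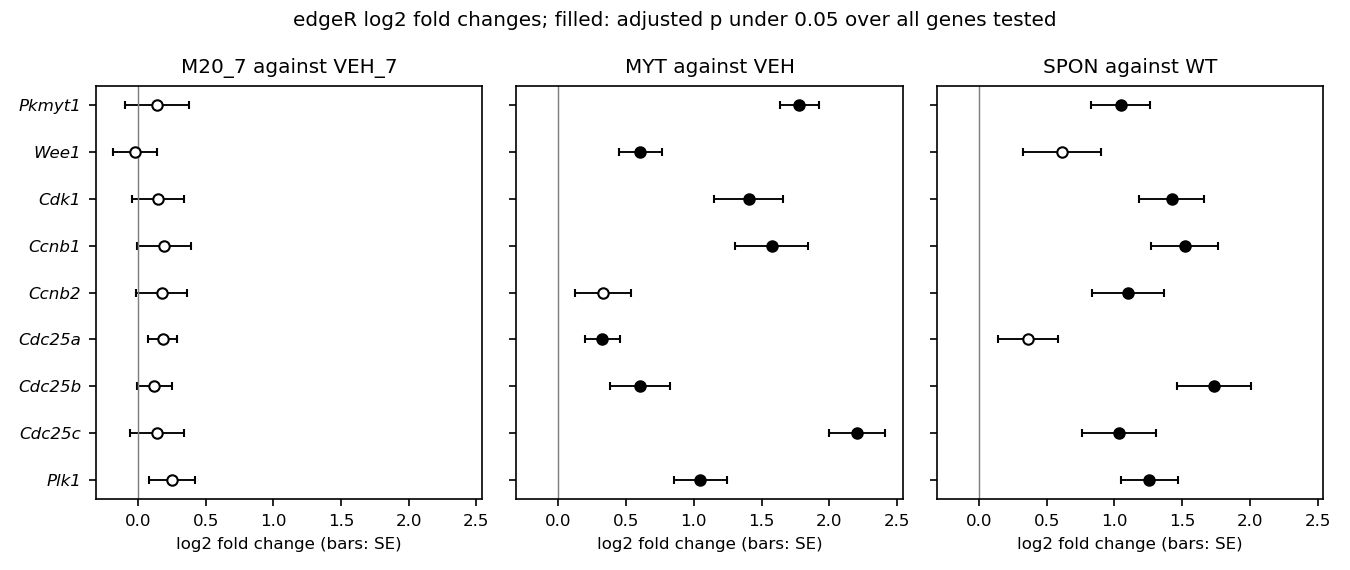
Log2 fold change with its SE for each of the 9 genes in 3 comparisons (edgeR); filled points have an adjusted p under 0.05 over all genes tested. No point is filled for M20_7 against VEH_7, 8 are for MYT against VEH and 7 for SPON against WT.

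Markers of several cell types moved with the MYT difference. All 10 luminal markers rose (summed CPM 611 to 1844 in VEH, 4111 to 10150 in MYT), 9 of 11 fibroblast and mesenchymal markers fell (14600 to 22120 against 1650 to 5476), and all 7 macrophage markers (1703 to 2298 against 469 to 1004) and all 6 endothelial markers fell (233 to 360 against 71.9 to 164). Of 5 neutrophil markers, 4 were tested and rose (13.9 to 72.3 against 95.5 to 210). Of 5 skeletal muscle markers, 3 were tested and 2 fell (72.0 to 939 against 0.677 to 6.23), and of 7 basal and myoepithelial markers, 6 were tested, 2 rose and 2 fell (179 to 2458 against 132 to 535). The VEH muscle sum was nearly all Acta1 (mean 456 CPM), the next being Tnnt3 at 1.61, so it does not show skeletal muscle there. The VEH basal sum was mostly Acta2 (mean 1213 CPM), the next being Myh11 at 32.8. No marker in these lists was at 0 in either group. Of 9 T and NK cell markers, 6 were tested and 0 passed, and of 5 adipocyte markers, 1 was tested and did not pass. Of 5 B cell markers, 0 were tested. The part of all these markers in the differences of the 9 genes was not tested, and drug and tumour make-up cannot be told apart in this comparison. Of the same lists in SPON against WT, 0 of 10 luminal markers (4964 to 10710 against 4029 to 5447) and 0 of 6 endothelial markers passed, 2 of 11 fibroblast and mesenchymal markers rose (1165 to 3123 against 773 to 1852), and 1 of 7 macrophage markers rose (218 to 574 against 133 to 261). Of 7 basal and myoepithelial markers, 1 was higher and 1 lower (46.8 to 631 against 137 to 471), and 1 of 4 tested neutrophil markers was higher (8.62 to 77.5 against 11.1 to 34.2). Their part was not tested here either.

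In the set titled _7, none of the 9 genes passed the test of RP-6306 against vehicle. Fold changes ran from -0.02 ± 0.16 for Wee1 to 0.25 ± 0.17 for Plk1 on the log2 scale (edgeR, adjusted p = 0.987 and 0.860). Pkmyt1 differed by 0.14 ± 0.23 (adjusted p = 0.939), with -0.09 and 0.42 as the extremes when 1 library was left out. No gene of 16699 was called by edgeR (0%), 1033 had an unadjusted p under 0.05, none of them among the 9, and DESeq2 called 55. Cdc25a ranges did not overlap, at 33.5 to 40.9 CPM in VEH_7 and 41.8 to 45.3 in M20_7, as for 6.67% of all genes, but the difference of 0.18 ± 0.11 did not pass (adjusted p = 0.843). The test cannot show that the drug left these transcripts alone, since 3 and 4 libraries left an SE of up to 0.23.

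The difference of RP-6306 from vehicle tumours was then compared between the sets. The log2 fold change was larger in the set without the suffix for 6 of the 9 genes (edgeR, median difference 0.80). Among all 17095 genes tested, 17% had a larger and 36% a different one. The 9 did not stand apart from the proliferation reference, where 11 of 14 genes had a larger and 0 a smaller one (median 1.03). In a list of CDK1 partners, activators and transcription factors, 11 of 19 tested genes had a larger and 1 a smaller one (median 0.74). This list also holds the mitotic genes Cenpf and Nek2. The difference was 2.07 ± 0.30 for Cdc25c (adjusted p = 2.14e-05), 1.65 ± 0.26 for Pkmyt1 (5.31e-05), 1.39 ± 0.39 for Ccnb1 (0.00730) and 1.26 ± 0.37 for Cdk1 (0.00994). Plk1, at 0.80 ± 0.29 (adjusted p = 0.0347), lost its call without VEH_7 replicate 1 or 3, M20_7 replicate 1 or 4, or VEH replicate 2 or 3, with only the MYT tumours of the 400s (adjusted p = 0.0586) and in 1 fit over 6 groups (0.0599). Wee1, at 0.63 ± 0.24 (adjusted p = 0.0459), lost it when any of 16 of the 22 libraries was left out (all but M20_7 replicates 3 and 4, VEH replicate 1 and MYT replicates 1, 8 and 9), without the low-count filter (adjusted p = 0.0687) and in 1 fit over 6 groups (0.185). With the 400s alone it was 0.42 (adjusted p = 0.225). Ccnb2 (0.16 ± 0.32), Cdc25a (0.15 ± 0.18) and Cdc25b (0.49 ± 0.32) did not pass. Depth and set differ with the suffix, and tumour make-up differed between drug and vehicle inside the set without it. Summed fibroblast and mesenchymal markers ran from 14600 to 22120 CPM in VEH and from 1650 to 5476 in MYT. They ran from 15930 to 23130 in VEH_7 and from 14450 to 17290 in M20_7. Depth, set and make-up cannot be told apart from the drug's effect.

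Between the vehicle groups of the sets, 1 of the 9 passed. Ccnb2 was lower in VEH than in VEH_7 by a log2 fold change of -0.65 ± 0.20 (edgeR, adjusted p = 0.0347), where 15.6% of genes were lower and 31% differed. That call was lost without VEH_7 replicate 1 or 3 or VEH replicate 1, 2 or 3. Pkmyt1 differed by -0.09 ± 0.26 and Wee1 by -0.22 ± 0.20 (adjusted p = 0.810 and 0.424). The median was -0.27 for the 9. Of the 14 proliferation reference genes, 7 were lower in VEH and 0 higher (median -0.68). Of 19 tested genes in the list of CDK1 partners, activators and transcription factors, 7 were lower and 0 higher (median -0.42). In VEH, 4 of 10 luminal and 4 of 6 tested basal and myoepithelial markers were higher and 0 lower. So were 3 of 4 tested neutrophil markers and 1 of 6 endothelial markers. Lower in VEH were 3 of 7 macrophage, 3 of 8 tested T and NK cell and 1 of 2 tested B cell markers. Of 11 fibroblast and mesenchymal markers, 2 were higher and 2 lower. Their part in the differences of the 9 genes was not tested.

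MYT and SPON tumours were also set side by side, and both groups serve in other comparisons too. MYT tumours had received RP-6306 and SPON tumours are labelled as untreated. The drug cannot be told apart here from other differences between the groups. Markers differed here as well: 4 of 4 tested neutrophil markers (summed CPM 95.5 to 210 in MYT, 8.62 to 77.5 in SPON) and 4 of 7 macrophage markers (469 to 1004 against 218 to 574) were higher in MYT, and 3 of 10 luminal markers were lower (4111 to 10150 against 4964 to 10710), as were the 1 adipocyte and the 1 skeletal muscle marker tested. Their part in the differences of the 9 genes was not tested. Pkmyt1 was higher in MYT by 0.69 ± 0.13 on the log2 scale (edgeR, adjusted p = 0.00106), and only SPON replicate 3, at 59.4 CPM, reached the lowest MYT library, at 59.3. With only the MYT tumours of the 400s the value was 0.68 and the adjusted p 0.0605. Cdk1 differed by 0.07 ± 0.23 and Cdc25c by 0.10 ± 0.19, neither past the threshold (adjusted p = 0.837 and 0.719). Nor did Ccnb1, at 0.37 ± 0.21, or Plk1, at -0.31 ± 0.15, pass (edgeR, adjusted p = 0.198 and 0.123). Wee1 differed by -0.32 ± 0.19 and passed only without SPON replicate 1 (-0.48, adjusted p = 0.0405). Cdc25b was higher by 0.53 ± 0.19 (adjusted p = 0.0442), and Ccnb2 and Cdc25a were lower, at -0.84 ± 0.21 and -0.41 ± 0.14 (adjusted p = 0.00711 and 0.0313). So 2 of the 9 were higher, against 9.46% of all genes, and 2 lower, against 19.1%, while 28.5% differed in either direction. The Cdc25b call was lost when any of 8 of the 16 libraries was left out (MYT replicates 3, 4, 6 and 7 and SPON replicates 1, 2, 3 and 5). The Cdc25a call was lost with any of 12 (all but MYT replicates 7 and 9 and SPON replicates 3 and 4). The Ccnb2 call did not hold in either MYT subset by title number (adjusted p = 0.0502 and 0.156).

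Across all 6 groups, each of the 9 genes differed somewhere (edgeR F test, adjusted p from 4.27e-12 for Pkmyt1 to 0.00499 for Wee1), as did 85.7% of the 18184 genes tested. The mean was highest in MYT for Pkmyt1, Cdk1, Ccnb1, Cdc25b and Cdc25c and highest in SPON for Wee1, Ccnb2, Cdc25a and Plk1. The highest group mean was 5.07 times the lowest for Cdc25b, 3.52 times for Pkmyt1 and 1.57 times for Cdc25a. Ranked by mean, 39 of the 45 pairs of neighbouring groups overlapped. The 6 that did not were SPON over M20_7 for Pkmyt1, Cdk1 and Ccnb1, M20_7 over VEH_7 for Cdc25a, and SPON over WT for Cdc25b and Cdc25c.

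Levels can be compared between genes only per length, here as CPM per kilobase of all annotated exon bases. On that scale Pkmyt1 and Wee1 were at 6.32 ± 1.40 and 7.12 ± 1.77 in VEH (n = 4) and at 21.7 ± 2.73 and 10.8 ± 1.67 in MYT (n = 11), so the order of the inhibitory kinases turned. Ccnb2 stood first of the 9 in VEH, at 23.8 ± 4.81, but behind 4 others in MYT, at 29.7 ± 8.23, where Plk1 led with 43.8 ± 8.45. With the length of the longest transcript instead, Pkmyt1 was at 7.94 and Wee1 at 7.12 in VEH, so their order there depends on the length used, Cdc25b (24.3) passed Ccnb2 (23.8) for first place in VEH, and Ccnb1 took the lead in MYT at 52.1.

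The other genes of the pathway were read from 4 lists, beside 30.5% of all genes that rose and 29% that fell in MYT against VEH, and 4.52% and 3.86% in SPON against WT. The list of partners, activators and transcription factors of CDK1 held 21 genes, among them the mitotic genes Cenpf and Nek2, which fall outside that name. Of the 21, 19 were tested in MYT against VEH, 15 rose and 1 fell (median log2 fold change 0.78, against 0.04 for all genes). Those with the smallest p were Lin9, a MuvB subunit (1.70 ± 0.16, edgeR adjusted p = 2.14e-07), Cks1b, a CDK-binding adaptor (2.16 ± 0.21, 2.42e-07), the transcription factor E2f1 (1.09 ± 0.12, 1.35e-06) and Cenpf, a kinetochore protein and FOXM1 target (1.71 ± 0.24, 1.12e-05). In SPON against WT, 12 of 19 rose and 0 fell (median 1.24), among them Nek2, a centrosome kinase (1.76 ± 0.35, adjusted p = 0.0143), Tpx2 (1.39 ± 0.27, 0.0123) and Aurka, the kinase that TPX2 activates (1.30 ± 0.24, 0.0115), and Ccna2, cyclin A (1.30 ± 0.27, 0.0158).

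In a list of PP2A-B55 phosphatase subunits and the Greatwall arm that restrains this phosphatase, 3 of 10 tested genes rose and 2 fell in MYT (median -0.03). That was near the 30.5% of all genes that rose. Mastl, the Greatwall kinase, rose by 0.92 ± 0.22 (edgeR, adjusted p = 0.00173), while the PP2A subunits Ppp2r1b and Ppp2r2a fell by 1.08 and 0.65 (3.06e-08 and 5.33e-06). Ppp2r2b had no count in VEH and was at least 14.6-fold higher in MYT, measured against a floor of 3 counts over the VEH group, which covers counting error only; with it at that bound the median stayed at -0.03. In SPON against WT, 1 of 9 passed, where 8.38% of all genes did: Mastl rose by 1.54 ± 0.23 (adjusted p = 0.00448), from 9.26 ± 1.59 CPM in WT to 26.8 ± 5.56 in SPON (n = 5 each).

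Of 22 genes that restrain CDC25 and CDK1 after DNA damage or replication stress, 8 rose and 3 fell in MYT (median 0.14), a share of higher calls near the 30.5% of all genes. Rad9a, part of the 9-1-1 clamp, rose (0.80 ± 0.14, edgeR adjusted p = 8.71e-05). Ywhag, a 14-3-3 protein that binds phosphorylated CDC25, the kinase gene Atm and Atrip, the partner of ATR, fell by 0.89, 1.25 and 0.72 (adjusted p = 4.55e-07, 9.49e-05 and 0.000464). In SPON against WT, 4 rose and 1 fell (median 0.33), where 4.52% of all genes rose and 3.86% fell. Cdkn1a, the CDK inhibitor p21, was lower in SPON, at 32.8 ± 14.0 CPM against 116 ± 31.9 in WT (log2 fold change -1.81 ± 0.34, adjusted p = 0.0111), and Gadd45g (1.66 ± 0.29, 0.00878), Topbp1 (1.04 ± 0.24, 0.0233) and Mapkapk2 (1.10 ± 0.26, 0.0263) were higher.

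Of 17 genes of cyclin B destruction and of WEE1 or CDC25A turnover, 9 rose and 2 fell in MYT (median 0.43), where 30.5% of all genes rose and 29% fell. The spindle checkpoint genes Bub1b (1.22 ± 0.17, edgeR adjusted p = 1.42e-05) and Mad2l1 (1.15 ± 0.15, 4.64e-06) and the deubiquitinase Usp37 (0.99 ± 0.12, 1.75e-06) rose, and Cdc16, a subunit of the anaphase-promoting complex, fell by 0.94 (1.12e-05). In SPON against WT, where 4.52% of all genes rose, 5 rose and 0 fell (median 0.40), among them Mad2l1 (1.95 ± 0.28, adjusted p = 0.00369), Bub1b (1.74 ± 0.32, 0.0105), Cdc20, the activator of that complex (1.56 ± 0.23, 0.00392), and Ube2c, the ubiquitin-conjugating enzyme that works with it (1.66 ± 0.43, 0.0390). In M20_7 against VEH_7, none of the tested genes of the 4 lists had an adjusted p under 0.05 in edgeR, nor an unadjusted one.

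**Figure D5:**
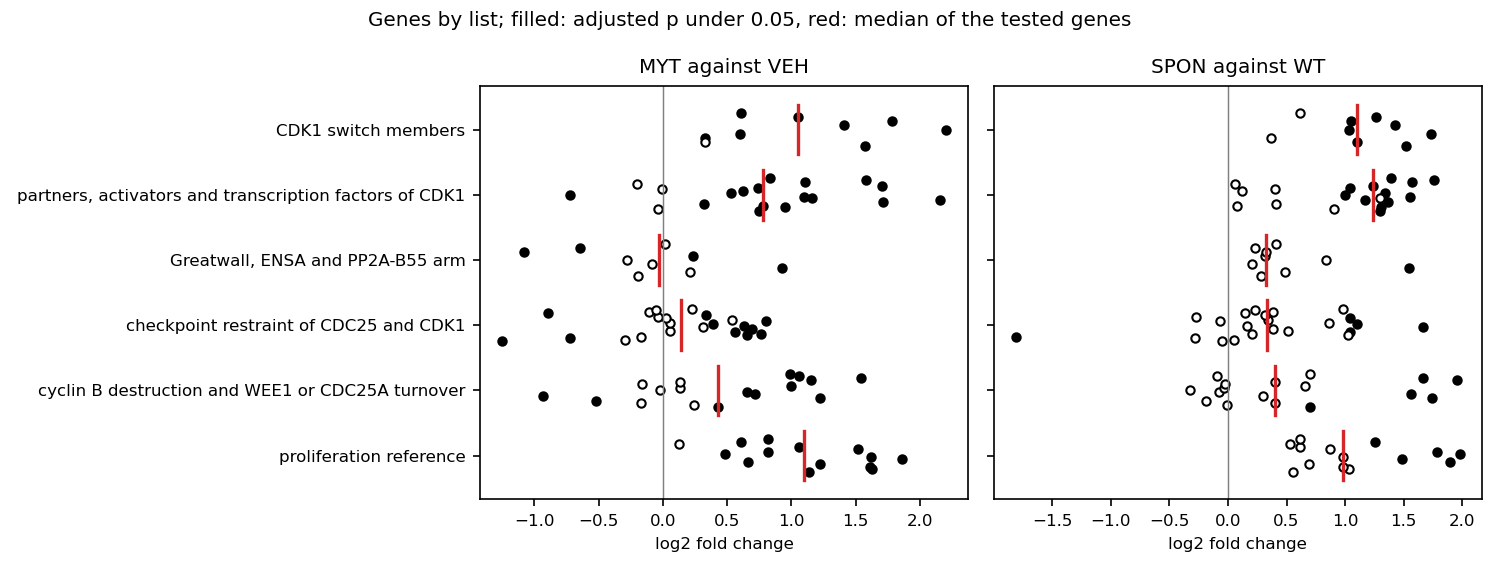
Log2 fold changes of the 9 members and of each list in MYT against VEH and in SPON against WT; filled points have an adjusted p under 0.05 (edgeR) and red lines mark the median of the tested genes. Ppp2r2b, without counts in VEH, is left out of the points at left; the members' medians are 1.05 and 1.10.

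Within the 11 MYT tumours, none of 3 relations between members passed a test. Pearson's r was 0.02 and Spearman's rho 0.10 between Pkmyt1 and Wee1 (permutation p = 0.957 and 0.778). For Pkmyt1 and Cdk1 they were 0.05 and 0.35 (permutation p = 0.884 and 0.290), and for Cdk1 and Ccnb1 0.25 and 0.32 (permutation p = 0.464 and 0.343). Adjusted over the 3 relations, the p of r was 0.957 for each and that of rho 0.778, 0.515 and 0.515. Without the 2 tumours farthest from the median on the x axis, r was 0.34, 0.16 and 0.10.

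As a description over all 32 libraries, each gene's log2 CPM was taken as the deviation from its group mean and correlated with 14477 named genes. All genes of a library share the depth and scaling of that library. The genes most like Pkmyt1 were Dcaf15 (r = 0.76), Mcm3 (0.74), Suv39h1 (0.74), Asf1b (0.74) and Ddx39 (0.72), and among the members Plk1 came closest, at place 19 (0.64). The genes most like Wee1 were Zfp563 (0.82), Stau2 (0.82), Lbr (0.78), Zfp551 (0.77) and Ipo8 (0.77), and Ccnb1 was its nearest member, at place 1217 (0.46). By Spearman's rho, 3 of these 5 stayed among the top 5, while Lbr stood at place 21 and Zfp551 at 27. Wee1 and Cdc25a had the lowest median r with the other members, at 0.11 and 0.20, and Plk1 the highest, at 0.65. Ccnb1 was the gene most like Cdc25b (0.83).

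Some reads may belong to neighbours, since the strand setting of the counting is not given. In GENCODE M21, Pkmyt1 (chr17:23726336-23736735, plus strand) shares 319 exon bases with Paqr4 on the opposite strand. Paqr4 was at 11.8 ± 3.88 CPM in VEH (n = 4), 20.0 ± 5.09 in MYT (n = 11), 41.3 ± 39.2 in SPON and 16.6 ± 3.002 in WT (n = 5 each). Cdc25c (chr18:34732993-34751533, minus strand) shares 623 with Gm3550, which stayed at or below 3.46 CPM in every grouped library. Cdc25b (chr2:131186949-131198497, plus strand) shares 92 with Spef1, which was also higher in SPON than in WT (2.19 ± 0.60, edgeR adjusted p = 0.0461), and Plk1 shares 156 with Gm44985. The pseudogene Ccnb1-ps, near-identical in part to Ccnb1, was at 8.24 ± 3.69 CPM in VEH and 20.9 ± 7.09 in MYT. Reads divided between such copies make the values of these members uncertain to that extent.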

How the data were processed

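RNA of 33 tumours was sequenced. STAR 2.7.10a, HTSeq and edgeR, with the build GRCm38, are named in the submitters' processing notes; the annotation release, kit and strand setting are not given in the sources used here. The deposited table holds whole-number read counts per gene, and rows without a symbol held 0.0482% of them. A second deposited table holds log2 CPM, which differed from log2 CPM recomputed with a prior count of 2 by 0.058 throughout and was not used further. For CPM, counts were scaled with TMM factors. These were 0.7684 in SPON replicate 1 and 0.6975 in SPON replicate 5, which raised the CPM of those libraries. In all other libraries they ran from 0.9284 to 1.149.

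Each comparison was fitted on its own groups, over all genes passing filterByExpr, with edgeR 4.0.16 in R 4.3.3 (glmQLFit, glmQLFTest, Benjamini-Hochberg over all genes tested, threshold 0.05). The SE of a log2 fold change comes from the F statistic. Alternatives were DESeq2 size factors, no low-count filter, DESeq2 1.42.0, limma 3.58.1 voom without and with sample quality weights, 1 fit over 6 groups, MYT subsets by title number, a prior count of 0.5 and each library left out. The fits were tested on simulated data. All 90 within-group pairs of libraries differed beyond sampling noise. Replicates are numbered in accession order.

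The members, lists and tests were chosen with earlier results of these data known. Named genes are the 9 members, up to 4 called genes of each list with the smallest p, Mki67 and Top2a, and the 5 genes most like Pkmyt1 and Wee1. In the comparisons other than MYT against VEH and SPON against WT, list genes are given only by counts or not at all. Ratios of Ccnb1 to Ccnb2, overlapping genes, pseudogenes, Epcam and the named muscle and basal markers were added after values had been seen. Positions are from GENCODE M21, promoter sequences from RefSeq on GRCm38.p6.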

Additional observations from a re-analysis of the deposited data

Results flagged for a closer look

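Of 36 groups of CPM values tested, 2 held 1 library far from the rest, and chance gives about 5% of groups such a library. Cdc25a in VEH replicate 1 was at 35.02 CPM, and Cdc25b in WT replicate 5 was at 39.3 CPM, which was still below every library outside WT. Without VEH replicate 1, the log2 fold change of Cdc25a in MYT against VEH was 0.47.

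The MYT-to-VEH difference exceeded the M20_7-to-VEH_7 difference by 1.65 for Pkmyt1, 0.63 for Wee1 and 1.26 for Cdk1 (log2 scale, edgeR test of the difference itself). By the same test it did so by 1.39 for Ccnb1, 2.07 for Cdc25c and 0.80 for Plk1. Leaving out 1 library at a time undid the Wee1 call in 16 of 22 fits and the Plk1 call in 6. Sequencing depth and set vary with the title suffix too, and tumour make-up differed between MYT and VEH. The drug's share in these values was not tested. The library whose title and treatment field disagree lay above the highest VEH library for 5 of the 9 genes, with Pkmyt1 at 31.6, Cdk1 at 92.1, Ccnb1 at 63.0, Ccnb2 at 52.0 and Cdc25c at 16.0 CPM, and Pkmyt1, Cdk1, Ccnb1 and Cdc25c were below the lowest MYT library.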

How the results depend on the processing

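No paired analysis was possible because the labels carry no replicate numbers. Of 624 values recomputed under the other alternatives, 554 kept their direction and side of the threshold or, for counts, stayed within 1.5 times. The 400s and the 4-digit tumours are MYT subsets by title number.

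For M20_7 against VEH_7, 4 genes were higher and 2 lower without the low-count filter and 16 and 39 with DESeq2, and Wee1 was 0.0567 with quality weights. For SPON against WT, DESeq2 called 1481 higher and 1167 lower and 1 fit over 6 groups 3192 and 2280, against 703 and 600. That fit gave 1543 and 1958 genes for the difference between sets, and 1297 and 1158 for VEH against VEH_7, where it called 0 members lower and quality weights called 3, with Cdk1 at -0.065. For MYT against SPON, members higher numbered 1 with voom, 1 with quality weights, 0 with the 400s and 1 with the 4-digit tumours, and members lower 1 without the filter and 0 with quality weights, the 400s or the 4-digit tumours. Genes higher and lower there were 806 and 1331 with quality weights, 241 and 617 with the 400s and 496 and 860 with the 4-digit tumours, and 1 fit gave 2354 higher. Cdk1 was then -0.0709 with quality weights and -0.0155 with the 4-digit tumours. The Ccnb2 difference between sets was -0.0066 with the 400s, and r of Pkmyt1 with Wee1 was -0.0365 with DESeq2 size factors. The cause was not tested.

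Leaving out 1 library gave, for SPON against WT, 218 to 992 genes higher (218 without WT replicate 4), 271 to 895 lower (271 without WT replicate 2) and 4 to 7 members. For MYT against SPON it gave 1311 to 2590 genes higher (2590 without SPON replicate 4), 1 to 2 members higher and 1 to 2 lower. For VEH against VEH_7 it gave 1559 to 2323 genes higher (1559 without VEH_7 replicate 3), 0 to 2 members lower, Pkmyt1 -0.32 to 0.19, Cdk1 -0.11 to 0.13 and Cdc25b -0.20 to 0.0561. For M20_7 against VEH_7, Pkmyt1 ran from -0.0922 to 0.42, Wee1 from -0.10 to 0.10, the ratio of Pkmyt1 to Cdk1 from -0.0705 to 0.25 and that of Cdc25b to Cdc25c from -0.083 to 0.15. The Ccnb2 difference between sets ran from -0.0164 to 0.32. Within MYT, r ran from -0.15 to 0.42 for Pkmyt1 and Wee1, from -0.29 to 0.47 for Pkmyt1 and Cdk1 and from -0.0063 to 0.51 for Cdk1 and Ccnb1.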
